A study of Mus musculus with 6 samples.

Results

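The cells described here are myeloid cells of mouse visceral fat that carry RNA of Ear2, a gene of the eosinophil-associated ribonucleases. They were picked from single-cell counts of unique molecular identifiers (UMIs, each standing for 1 captured RNA molecule). A cell had to hold at least 3 UMIs of Ear2, fewer than 4 UMIs of Cd209f, Cd209g, Cd209d and Cd163 together (genes of resident macrophages), fewer than 8 of Gpnmb, Mmp12, Rnf128, Cpe and Atp6v0d2 together (genes of lipid-laden macrophages) and fewer than 6 of Col3a1 and Col1a2 together (collagens). These conditions held for 258 of 2114 kept cells, which are called Ear2 cells below. They came from 3 samples labelled HFD (high-fat diet), with 26, 18 and 18 Ear2 cells among 453, 295 and 380 kept cells, and from 3 samples labelled control, with 68, 67 and 61 Ear2 cells among 388, 260 and 338. All 6 samples were sorted from collagenase-digested epididymal fat for 2 surface proteins, CD45 of leukocytes and CD11b of myeloid cells. The labels give no strain, age, sex or diet length and name no animals, so the p-values rest on sample-to-sample spread, part or all of which may be technical. Because the Ear2 counts and the absence of the other genes chose the cells, their difference from other cells is a description and carries no test. The 12 genes of the rule are not named as results, but counts over all genes still include them.

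As background, monocytes are made in the bone marrow, use the receptor Ccr2 to leave the blood, and become macrophages or dendritic-like cells in tissues. Ear2 encodes a small secreted ribonuclease. It was named after eosinophils but is also transcribed in mouse monocytes and macrophages. Retnla, also called Fizz1 or RELMalpha, encodes a secreted protein of the resistin-like family and is a textbook target of interleukin 4 and interleukin 13 acting through the transcription factor Stat6. In mouse serous cavities, a small monocyte-derived macrophage with MHC class II is known by Retnla, Cd226 and the transcription factor Irf4.

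The upstream sequences of both genes that name these cells are shown because Stat6 is known to bind the letters TTC and GAA with 4 bases between them, a palindrome that covers both strands. Each run below is the 250 bases before the RefSeq gene start on build GRCm38.p6, plus strand, 5′ to 3′, with the motif in capitals. Retnla lies at chr16:48842359-48842608 and holds 1 match, TTCACAAGAA, which starts 145 bases before the gene start. Ear2 lies at chr14:44102404-44102653 and holds no match in this window. Of 32851 such windows in the RefSeq table, 5.85% hold the motif, so a match is no rarity, and it is a description, not a bound site.
Retnla: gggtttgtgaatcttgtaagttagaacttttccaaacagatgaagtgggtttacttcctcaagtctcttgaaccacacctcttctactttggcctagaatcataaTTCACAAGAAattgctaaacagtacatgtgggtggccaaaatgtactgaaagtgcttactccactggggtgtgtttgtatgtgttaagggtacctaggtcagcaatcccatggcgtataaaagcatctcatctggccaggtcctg
Ear2: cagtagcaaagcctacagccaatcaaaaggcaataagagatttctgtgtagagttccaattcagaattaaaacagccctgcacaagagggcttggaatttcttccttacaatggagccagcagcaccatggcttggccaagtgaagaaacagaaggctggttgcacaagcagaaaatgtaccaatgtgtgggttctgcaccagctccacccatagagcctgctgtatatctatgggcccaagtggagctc

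Ear2 belongs to a family of near-identical copies. The annotated Ear2 transcript is 96.8% identical to Ear1, 94.7% to Ear10 and 89.2% to Ear6 over the aligned bases, so UMIs could be divided among copies. Ear1 averaged 9.52 counts per 1000000 UMIs (CPM) over the 6 samples in Ear2 cells and 0.351 CPM in the other kept cells. Ear10 averaged 4.39 CPM in Ear2 cells and 0.357 CPM in other cells. Ear6 and Ear14 had no UMI in Ear2 cells. Ear2 itself had 3 to 78 UMIs per cell with a median of 10, and it averaged 1482 CPM in Ear2 cells against 154 CPM in other cells, which the rule fixed.

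Barcodes recur between samples, and that bears on every value. The 6 matrices list 5511 entries from 2195 distinct barcodes, of which 1082 stand in several samples, and each barcode was kept where it had most UMIs. Of the Ear2 cells, 19 of 62 in HFD and 105 of 196 in control have a barcode that is also listed elsewhere, and the shared ones hold a median of 71.2% of their barcode's UMIs. Whole matrices held 5078891 to 6992602 UMIs in HFD and 4477100 to 5572766 in control. Median UMIs per Ear2 cell were 8160 in HFD and 7111.5 in control, against 10007.5 and 7323.5 in the other kept cells of HFD and control.

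Ear2 cells made up a smaller share of the kept cells in HFD than in control. Their share was 5.74%, 6.10% and 4.74% in the HFD samples, against 17.5%, 25.8% and 18.0% in the control samples. The highest HFD share lies below the lowest control share. The means were 5.53% ± 0.707 in HFD and 20.4% ± 4.62 in control (SD, n = 3 each). With every cell thinned to 3000 UMIs the shares averaged 4.56% in HFD and 18.7% in control. The gap depends on how shared barcodes are treated. With barcodes found in only 1 sample it was 7.50% in HFD and 20.6% in control, but with every deposited entry counted it was 9.27% in HFD and 11.95% in control. The sorted cells are a fixed gate, so a share is a share of this gate and not a number of cells per gram of fat. Fewer Ear2 cells and less Ear2 RNA per cell cannot be told apart by this rule.

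**Figure D1:**
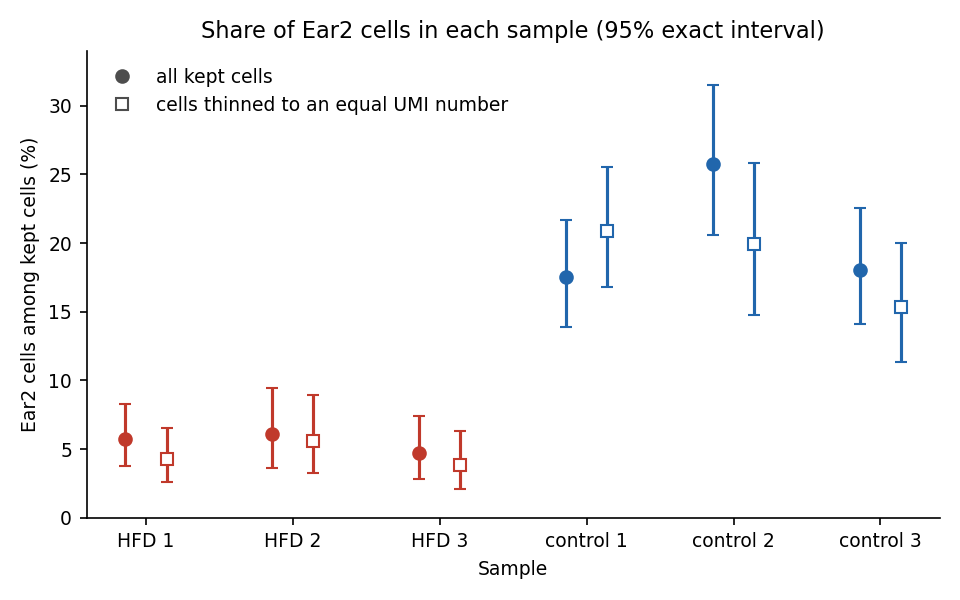
Share of Ear2 cells among kept cells in each sample (percent), with 95% exact binomial intervals, for all kept cells (filled) and for cells thinned to an equal number of UMIs (open). The HFD samples sit between 4.74% and 6.10%, all below the control samples at 17.5% to 25.8%.

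The Ear2 threshold left many cells with fewer Ear2 UMIs outside. Of the kept cells, 832 had at least 1 Ear2 UMI and 446 had at least 3. Of these 446, 188 were left out, 109 of them by the resident genes, 86 by the lipid genes and 2 by the collagens, with some left out on several counts. Just inside the threshold stood 44 cells with 3 Ear2 UMIs, and just outside 52 cells with 2 UMIs that met the other conditions. Pooled over samples, Ccr2, the monocyte chemokine receptor, was at 320 CPM just inside and 307 CPM just outside. Apoe, a lipoprotein of macrophages, was at 5003 CPM just inside, 5720 CPM just outside and 13287 CPM in cells with no Ear2 UMI. Other genes differed more, with the chemokine Ccl17 at 38.4 CPM just inside and 647 CPM just outside, and the acute-phase gene Saa3 at 163 CPM just inside and 1695 CPM just outside. The 4 genes were chosen after their values were seen.

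The genes that lead Ear2 cells over the other kept cells include several known from inflammatory monocytes, of which some are as high in the dendritic-gene cells described below. Levels were set against all 1856 other kept cells within each sample, as the log2 ratio of CPM with 5 CPM added to both. Among 1372 genes of at least 100 CPM, 303 (22.1%) were higher in Ear2 cells in 6 of 6 samples and 256 (18.7%) were lower. Changes of 2-fold or more in all 6 samples were rare, with 1 gene higher (0.0729%) and 36 lower (2.62%). The rule genes were not removed from these counts, so the 1 higher gene may be Ear2 itself. None of the higher genes named below reached 2-fold in every sample, and Unc119 came nearest with a lowest log2 ratio of 0.95. The lower count takes in stromal genes, whose cells the collagen limit removed. The counts therefore cannot show in which direction large differences lie apart from the choice of cells.

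Ifitm6, an interferon-induced membrane protein of monocytes, had the highest median log2 ratio at 1.59. It was at 136, 287 and 176 CPM in Ear2 cells of HFD and 211, 255 and 220 CPM in Ear2 cells of control, against 22.9 to 26.1 CPM in other cells of HFD and 120 to 167 CPM in other cells of control. It was higher in Ear2 cells in every sample. Il1b, the inflammatory cytokine interleukin 1 beta, had a median log2 ratio of 1.58 and averaged 2603 CPM in Ear2 cells and 959 CPM in other cells. Clec4e, the lectin receptor Mincle, had a ratio of 1.40, and Ccr2 of 1.18. Ccr2 ranged from 196 to 454 CPM in Ear2 cells and from 68.5 to 301 CPM in other cells. The survival genes Bcl2a1a and Bcl2a1d, which are near-identical copies, had ratios of 1.53 and 1.16.

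The other leading genes were of leukocyte adhesion, movement and signalling. Cytip (1.49), Lsp1 (1.14), Ezr (1.34), Plxnd1 (1.07) and Ptprc (1.01), which encodes CD45, were higher in 6 of 6 samples on the log2 scale. So were Cd52 (1.01), the monocyte gene Plac8 (1.05), the phosphatase Dusp2 (1.25), the apoptosis gene Pmaip1 (1.24), the interferon-induced Isg15 (1.00) and the transcription factors Nr4a3 (1.04) and Nfil3 (1.06). Unc119 (1.34) and Sowahc (1.04) complete the 20 highest. The 20 medians span 1.00 to 1.59, and the ratios differed by diet. Ifitm6 averaged 200 CPM in Ear2 cells and 24.1 CPM in other cells in HFD, but 229 CPM in Ear2 cells and 143 CPM in other cells in control. Plac8 had single-sample ratios of 0.07 to 2.77. With barcodes in only 1 sample, Plac8 and Nr4a3 were higher in 4 of 6 samples and Isg15 in 5, and with at least 5 Ear2 UMIs Plac8 was higher in 5.

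Genes lowest in Ear2 cells were mostly those of stromal cells. Dcn, a proteoglycan of fibroblasts, averaged 112 CPM in Ear2 cells and 1455 CPM in other cells, a median log2 ratio of -3.44. Ccl11 (-3.40), Clec3b (-3.24), Lum (-2.96), Mfap5 (-2.89), Sparc (-2.89), Aebp1 (-2.81), Igfbp7 (-2.81) and Col1a1 (-2.75) were also lower in 6 of 6 samples. The rule's limit on 2 collagens removed fibroblast-rich cells, so these values follow from the choice of cells. The exception among the 10 lowest is Ccl8, a chemokine of resident macrophages, at 200 CPM in Ear2 cells and 1154 CPM in other cells (-2.94).

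Over all 6 samples together, genes of the monocyte lists were level or higher in Ear2 cells, and most genes of the macrophage lists were lower. Over all 5103 genes of at least 20 CPM, 8.94% were higher and 14.7% lower in 6 of 6 samples, with a median log2 ratio of -0.07. Of the 6 classical monocyte genes at that level, 2 were higher (Ccr2 and Plac8) and none was lower, with a median of 1.11. Chil3 and Hp, of the same list, were higher in Ear2 cells only in HFD by their means. Chil3 averaged 411 CPM in Ear2 cells and 19.7 CPM in other cells in HFD, but 35.9 and 49.05 CPM in control. Hp averaged 130 CPM in Ear2 cells and 23.0 CPM in other cells in HFD, but 24.3 and 30.3 CPM in control. Of the 10 non-classical monocyte genes, 3 were higher (Nr4a1, Pglyrp1 and Itgal) and none was lower, with a median of 1.00. Ly6c2, a defining surface gene of classical monocytes, averaged only 43.1 CPM in Ear2 cells and 36.6 CPM in other cells, and Vcan, a proteoglycan of classical monocytes, was under 1 CPM in Ear2 cells. In the Plac8 cells described below, Ly6c2 averaged 279 CPM. The resemblance to classical monocytes thus does not extend to all of their defining genes.

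Macrophage genes were present but low. Of 10 macrophage genes, 9 were lower in 6 of 6 samples, with a median log2 ratio of -1.01. C1qa, a subunit of complement C1q, was at 1329, 1100 and 1088 CPM in Ear2 cells of HFD and 1528, 652 and 1006 CPM in Ear2 cells of control, against means of 2721 CPM in other cells of HFD and 2624 CPM in other cells of control. Apoe averaged 4289 CPM in Ear2 cells and 11845 CPM in other cells. Of 9 resident perivascular macrophage genes, 8 were lower, with a median of -1.93, among them the folate receptor Folr2 at 126 CPM in Ear2 cells and 655 CPM in other cells. The resident list is not independent of the rule, which removed cells rich in the Cd209 genes and Cd163. Of 12 complement genes 11 were lower, and of 25 lysosome genes 15 were lower and none was higher.

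Dendritic cell genes were mixed. Of 5 genes of type 2 conventional dendritic cells at 20 CPM or more, none was higher or lower in 6 of 6 samples. Cd209a averaged 164 CPM in Ear2 cells and 174 CPM in other cells. The defining genes Flt3 and Zbtb46 were at 7.91 and 5.40 CPM in Ear2 cells, and the type 1 genes Xcr1 and Clec9a at 0.823 and 0.838 CPM. Of the 4 type 1 genes at 20 CPM or more, 2 were higher in 6 of 6 samples, the transcription factor Batf3 and the lysosomal hydrolase Naaa, and none was lower. MHC class II genes were high in both, and 4 of 10 were higher in Ear2 cells, H2-Ab1 among them with 11631 CPM in Ear2 cells and 8065 CPM in other cells.

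Genes of other cell types that the gate could hold ranged from none to high in single samples. The eosinophil genes Epx, Prg3, Il5ra and Ear6 had no UMI in Ear2 cells, and the whole list summed to 7.35 to 14.0 CPM in HFD and 11.4 to 24.7 CPM in control. The 5 mesothelial genes summed to at most 1.90 CPM in any sample of Ear2 cells. T cell genes summed to 7.01 to 132 CPM in HFD and 17.1 to 105 CPM in control. Fibroblast genes summed to 617 to 779 CPM in Ear2 cells of HFD and 253 to 405 CPM in Ear2 cells of control, against 1211 to 7313 CPM in other cells. Their sum in Ear2 cells was thus higher in HFD, while none of the 3 fibroblast genes tested for diet passed. Endothelial genes, Fabp4 among them, summed to 547 to 1201 CPM in HFD and 74.1 to 526 CPM in control, so this sum was higher in HFD as well. Only 1 of these 5 genes was at 20 CPM or more, and the 1 tested for diet did not pass. Plasma cell genes summed to 161 to 198 CPM in HFD and 156 to 1602 CPM in control. Neutrophil genes summed to 22.0 to 839 CPM in HFD and 20.9 to 156 CPM in control, and B cell genes to 111 to 294 CPM in HFD and 60.7 to 2292 CPM in control. The part of RNA of these types in the diet results was not tested.

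**Figure D2:**
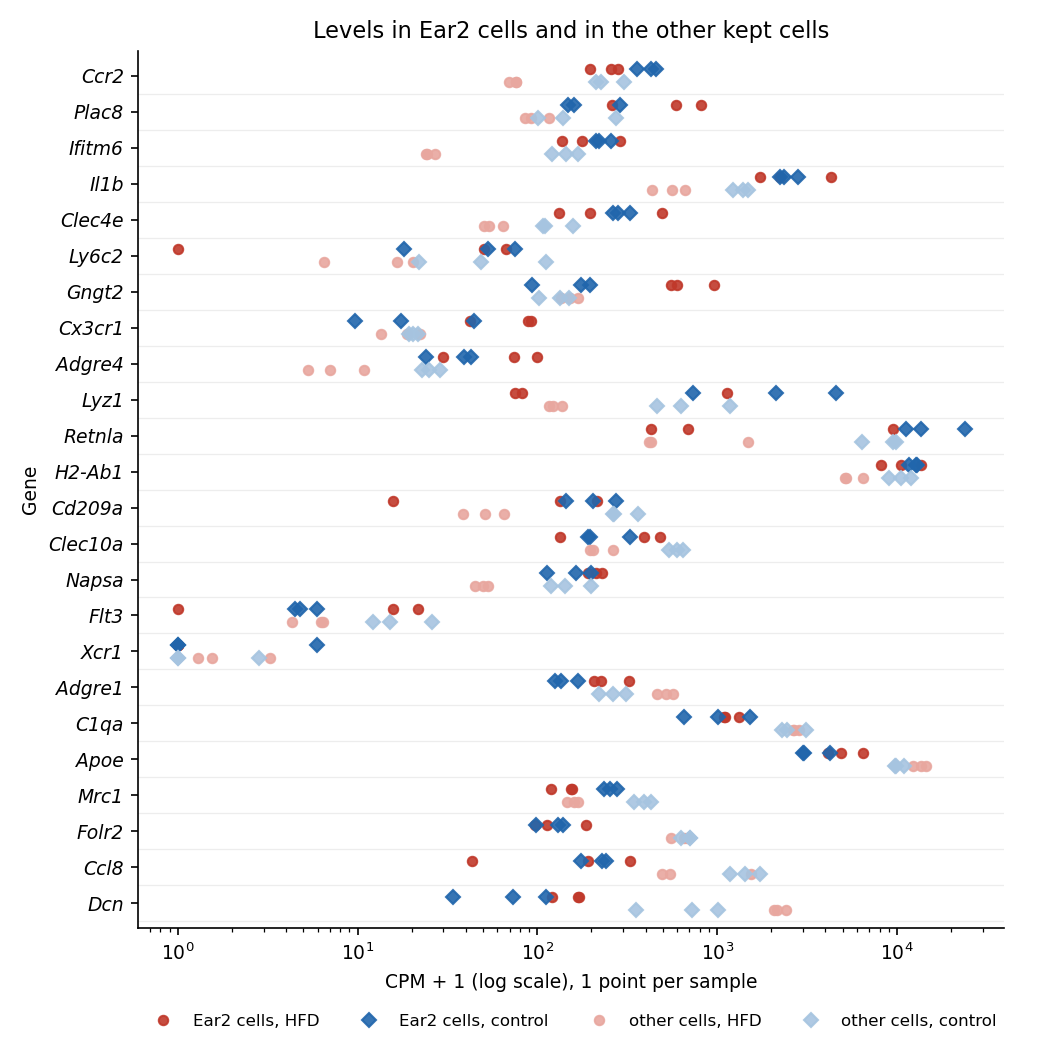
CPM plus 1 on a log axis for genes of monocytes, dendritic cells and macrophages in each sample, for Ear2 cells (dark) above the other kept cells (light), HFD as circles and control as diamonds. Ccr2, Ifitm6 and Il1b lie further right in Ear2 cells, and C1qa, Apoe and Folr2 further left.

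Set beside smaller groups of the other cells, Ear2 cells shared some levels with a monocyte-gene group and others with a dendritic-gene group. These groups were 89 cells with at least 3 UMIs of Plac8 and Ms4a4c (Plac8 cells), 81 with at least 3 of Cd209a (Cd209a cells), 358 with at least 10 of the C1q genes (C1q cells) and 485 rich in the resident genes. Clec4e averaged 281 CPM in Ear2 cells, 293 CPM in Plac8 cells, 25.3 CPM in Cd209a cells and 113 CPM in C1q cells. Apoe averaged 4289 CPM in Ear2 cells, 4596 CPM in Plac8 cells and 15849 CPM in C1q cells. H2-Ab1 was at 11631 CPM in Ear2 cells, 11394 CPM in Plac8 cells and 21639 CPM in Cd209a cells.

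Several genes that lead Ear2 cells over the other cells as a whole were as high in these groups. Ifitm6 averaged 214 CPM in Ear2 cells, 183 CPM in Plac8 cells and 282 CPM in Cd209a cells. Ccr2 averaged 328 CPM in Ear2 cells, 457 CPM in Plac8 cells and 389 CPM in Cd209a cells. Il1b was level at 2603, 2721 and 2576 CPM in Ear2, Plac8 and Cd209a cells. Lsp1 was at 802 CPM in Ear2 cells and 786 CPM in Plac8 cells but at 1646 CPM in Cd209a cells. Each of these 4 genes was at a higher mean in at least 1 of those groups than in Ear2 cells.

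Other genes differed in level between Ear2 cells and Plac8 cells. Fn1, fibronectin, averaged 997 CPM in Ear2 cells, 399 CPM in Plac8 cells and 141 CPM in Cd209a cells. Napsa, an aspartic protease of dendritic cells and monocytes, went the other way with 183 CPM in Ear2 cells, 422 CPM in Plac8 cells and 663 CPM in Cd209a cells. Flt3 was at 7.91 CPM in Ear2 cells, 42.1 CPM in Plac8 cells and 61.0 CPM in Cd209a cells. The Fn1 mean joins diets that differ, with 479 CPM in HFD and 1514 CPM in control in Ear2 cells. None of these differences was tested, since counts of the same cells chose the groups.

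Ear2 cells were not uniform. At least 10 C1q UMIs were held by 151 of them, 38 in HFD and 113 in control, and fewer by 107. Pooled over samples, the cells with fewer C1q UMIs had 524 CPM of Plac8 against 181 CPM in those with more. They also had 96.0 against 18.4 CPM of Pglyrp1 and 51.8 against 12.7 CPM of Ace, both genes of non-classical monocytes. Apoe was at 2303 CPM in cells with fewer C1q UMIs and 4572 CPM in those with more. Ccr2 was alike, at 382 and 372 CPM. At least 3 Cd209a UMIs were held by 36 of the 258 cells, 5 in HFD and 31 in control, and 20 of these also held at least 10 C1q UMIs. Of the 258, 3 cells held at least 3 UMIs of T cell receptor complex genes.

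Retnla divided Ear2 cells by diet. A Retnla UMI was found in 231 of 258 cells, and the 27 without one were all from HFD, 18 of 26 in sample 1, 6 of 18 in sample 2 and 3 of 18 in sample 3. The median cell held 0, 1 and 2 Retnla UMIs in the HFD samples, against 162.5, 29 and 46 in the control samples. At least 10 UMIs were held by 7 of 62 cells in HFD and 167 of 196 cells in control. The name "Retnla positive" thus fits the control cells and not most HFD cells.

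The shares with a single UMI need the background beside them. Thinned to 3000 UMIs, 36.2% ± 11.5 of Ear2 cells in HFD had a Retnla UMI, against 100% in all 3 control samples (SD, n = 3 each; two-sided exact permutation p = 0.1, the smallest this design allows). Fibroblast-gene cells, which should lack Retnla, had one in 29.7% of 192 HFD cells and 94.7% of 19 control cells. The median depth before thinning was 8160 and 7111.5 UMIs in Ear2 cells of HFD and control, and 7033 and 7888 in fibroblast-gene cells. The other kept cells had one in 36.9% in HFD and 99.1% in control. In HFD the share in Ear2 cells is therefore at the background of these libraries, and in control nearly every cell of any type has a UMI, so the level has to be read instead.

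By level, Retnla was at 428, 9536 and 691 CPM in Ear2 cells of the HFD samples, against 23925, 13607 and 11214 CPM in the control samples. The other cells had 426, 419 and 1475 CPM in HFD and 9902, 6363 and 9520 CPM in control. In HFD 1 and HFD 3 the Ear2 cells were level with or below the other cells of their own sample. In HFD 2, 1 cell held 1294 of the 1361 Retnla UMIs, and without it the level was 518 CPM. In control, Retnla was higher in Ear2 cells than in other cells in all 3 samples, and T cells there had 1700 CPM.

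The diet difference in Retnla was -2.26 ± 0.84 on the log2 scale (SE; HFD minus control) and did not pass, with an adjusted p of 0.196 in edgeR's quasi-likelihood test with Benjamini-Hochberg adjustment. Without HFD 2 it was -5.00 (adjusted p = 6.61e-05). With barcodes in only 1 sample, where HFD 2 dropped out for holding 8 Ear2 cells, it was -4.66 (adjusted p = 3.74e-06). With cells thinned to 3000 UMIs it was -2.81 (adjusted p = 0.0314), and with every deposited entry -0.67 (adjusted p = 0.0127). With only cells that hold at least 80% of their barcode's UMIs, HFD 2 among them with 13 cells, it was -4.86 (adjusted p = 3.89e-07). All these values are negative, and whether the difference passed depended on the setting. It did not pass without any 1 of the other 5 samples (adjusted p from 0.214 to 0.374). Nor did it pass in edgeR with RLE size factors (adjusted p = 0.197) or in DESeq2 (adjusted p = 0.597). In edgeR it also failed with at least 2 Ear2 UMIs (adjusted p = 0.132) and at least 5 (adjusted p = 0.205). The same held with fewer than 2 Cd209a UMIs (adjusted p = 0.228) and at least 10 C1q UMIs (adjusted p = 0.330). With no low-count filter and with a replicate block Retnla passed. Lyz1, a lysozyme gene near-identical to Lyz2, behaved alike, at 74.0, 1128 and 80.8 CPM in HFD against 4574, 2129 and 736 CPM in control, with -2.66 ± 0.84 (adjusted p = 0.119) and -5.13 without HFD 2 (adjusted p = 0.00809).

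**Figure D3:**
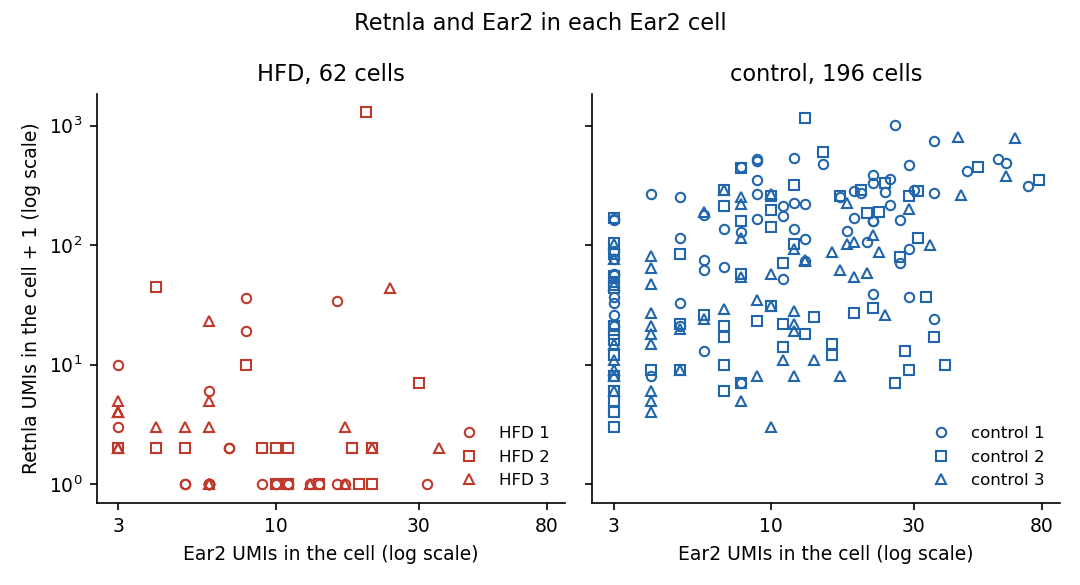
Retnla UMIs plus 1 against Ear2 UMIs in each Ear2 cell, both on log axes, HFD on the left and control on the right, with a marker for each sample. Most HFD cells lie at 0 to 3 Retnla UMIs, with 1 cell of HFD 2 at 1294, while control cells range from 2 to 1149.

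Across all genes, the HFD and control samples of Ear2 cells were compared on UMI sums per sample with edgeR's quasi-likelihood test at an adjusted p below 0.05. Of 3931 genes tested, 46 rose (1.17%) and 44 fell (1.12%) in HFD, 90 in all (2.29%), and 649 had an unadjusted p below 0.05. Among the 90 are 2 of the 12 rule genes, whose counts chose the cells. The groups did not overlap in 878 genes (22.3%). The counts depend on single samples. Without control 1 they were 11 higher and 22 lower, without control 2 they were 12 and 24, without HFD 1 they were 28 and 21, without HFD 2 they were 23 and 29, and without HFD 3 they were 17 and 24, while without control 3 they were 50 and 59. Of the 90 calls, 30 were made again without control 1, 32 without control 2 and 70 without control 3. Without HFD 1, HFD 2 and HFD 3 these numbers were 37, 41 and 35. In each of these 6 fits, the 87 to 90 called genes that could be tested kept their direction, but mostly the same samples had made the calls.

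Some genes of blood monocytes rose in Ear2 cells of HFD. Chil3, the chitinase-like protein Ym1, was at 173, 427 and 632 CPM in HFD, against 26.3, 64.1 and 17.1 CPM in control. The log2 difference was 3.35 ± 0.47 (SE, adjusted p = 0.00315). Gngt2, a G protein subunit of non-classical monocytes, was at 551, 596 and 955 CPM in HFD against 92.2, 173 and 195 CPM in control, a difference of 2.10 ± 0.27. Hp, haptoglobin, was at 103, 140 and 147 CPM in HFD and 23.0, 15.6 and 34.2 CPM in control (2.30 ± 0.31). The lowest HFD value lies above the highest control value in each of these 3 genes, which the rule for naming them required. Few cells carried Chil3, with a UMI in 13 of 62 cells in HFD and 17 of 196 in control, and a single cell held 66.7%, 68.9% and 81.4% of its UMIs in the HFD samples. Gngt2 was spread over 47 of 62 cells in HFD and 72 of 196 in control. Hp was found in 14 of 62 cells in HFD and 21 of 196 in control, and with barcodes in only 1 sample its difference was 1.77 and did not pass (adjusted p = 0.172).

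Of the 7 non-classical monocyte genes tested, 2 rose (Gngt2 and Eno3) and none fell. Over all genes tested, 1.17% rose and 1.12% fell. Eno3, an enolase, was at 45.2, 28.0 and 184 CPM in HFD against 3.29, 8.67 and 7.59 CPM in control (3.46 ± 0.68), and missed the threshold without control 1, control 2 or HFD 3. Of the 6 classical monocyte genes tested, Chil3 and Hp rose and Ccr2 fell. Ccr2 was at 255, 196 and 279 CPM in HFD and 426, 454 and 357 CPM in control (-0.84 ± 0.19, adjusted p = 0.0372), and this call was lost in 5 of the 6 fits that left out a sample. In the other kept cells Ccr2 averaged 72.8 CPM in HFD and 246 CPM in control. The interaction test described below passed for Ccr2, with the smaller fall in Ear2 cells. Plac8 was at 588, 259 and 808 CPM in HFD and 158, 288 and 146 CPM in control, where the ranges overlap (1.39 ± 0.34, adjusted p = 0.0552). A single cell held 76.9% of the Plac8 UMIs in HFD 1 and 80.5% in control 3. Among the Ear2 cells with at least 10 C1q UMIs, Plac8 was lower in HFD, with a log2 difference of -1.48 (adjusted p = 0.0639).

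Genes of lipid-associated macrophages and lysosomes also rose. Trem2, a lipid-sensing receptor, was at 526, 427 and 478 CPM in HFD, against 69.1, 69.3 and 188 CPM in control (2.08 ± 0.32, adjusted p = 0.00518). Cd63, a tetraspanin of late endosomes, was at 1250, 1051 and 1036 CPM in HFD and 260, 258 and 520 CPM in control (1.62 ± 0.24). Both genes separated the diets without overlap, which the rule for naming them required. Of 10 lipid-associated genes tested, 5 rose (Trem2, Plin2, Lipa, Ctsk and Lgals3) and none fell, and all 10 differences were positive. Of 25 lysosome genes, 7 rose (Cd63, Ctss, Ctsb, Lipa, Ctsk, Ctsd and Cd68) and none fell, with a median log2 difference of 0.48 against 0.00 over all genes tested. Beside both lists, 1.17% of all genes tested rose and 1.12% fell, and 1978 of 3931 differences were positive.

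Trem2 and Cd63 were also higher in HFD in the other cells. Trem2 differed by 2.02 ± 0.52 between the diets in the other kept cells, where it averaged 1130 CPM in HFD and 260 CPM in control, and Cd63 differed there by 1.28 ± 0.23. The other cells of HFD included 446 cells above the lipid-gene limit, and those of control 40. The part that RNA from those cells takes in these rises was not tested. Several of these calls rested on single samples. Ctss and Ctsb each missed the threshold in 2 of the 6 fits without a sample (without control 1 and control 2, and without control 1 and HFD 3). Plin2 missed it in 3, Lipa, Ctsk, Ctsd, Cd68 and Lgals3 in 4, and Trem2 and Cd63 in none.

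The remaining genes with the largest rises were mostly surface proteins of myeloid cells. The rule for naming them required that the diets not overlap. Cd72, a lectin-like inhibitory receptor (2.45 ± 0.52), Fcgr4, an IgG receptor (1.87 ± 0.45), Sema4d, a semaphorin (1.66 ± 0.36), Ms4a7, a membrane gene of macrophages (1.54 ± 0.26), and Cd300a, an inhibitory receptor (1.21 ± 0.26), were higher in HFD without overlap. So were Naa20, an acetyltransferase subunit (1.34 ± 0.27), and Myo1f, a myosin of leukocytes (1.21 ± 0.19), which did not pass with barcodes in only 1 sample (adjusted p = 0.151) or with every entry (adjusted p = 0.0679). Cd72, Fcgr4, Sema4d, Naa20 and Cd300a missed the threshold in 5 of the 6 fits that left out a sample, with adjusted p up to 0.207, and Ms4a7 without control 2 or HFD 1. In the other kept cells Cd72 (2.04 ± 0.17), Ms4a7 (1.28 ± 0.12), Naa20 (1.06 ± 0.18), Myo1f (0.69 ± 0.14) and Cd300a (0.45 ± 0.10) rose as well. Fcgr4 and Sema4d did not pass there. The interaction test described below passed for none of the genes named so far in this paragraph. Cadm1, an adhesion molecule, was at 74.0, 133 and 80.8 CPM in Ear2 cells of HFD and 1.65, 0 and 3.80 CPM in those of control (adjusted p = 0.000892).

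Il6 and Areg fell most among the genes named by rule. Il6, interleukin 6, was at 8.23, 28.0 and 36.7 CPM in HFD, against 423, 310 and 250 CPM in control (-4.00 ± 0.39, adjusted p = 0.000758). Areg, the growth factor amphiregulin, was at 28.8, 14.0 and 14.7 CPM in HFD and 308, 295 and 165 CPM in control (-3.68 ± 0.40). Neither gene overlapped between diets, which the rule for naming them required. In the other kept cells Il6 averaged 41.1 CPM in HFD and 136 CPM in control, and Areg averaged 12.1 CPM in HFD and 114 CPM in control, so both were lower there as well.

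Chemokines fell in part. Of 17 chemokines tested, 5 fell (Cxcl10, Ccl2, Ccl7, Ccl12 and Ccl6) and none rose, against 1.12% and 1.17% over all genes tested. Cxcl10, which attracts T cells, was at 12.3, 21.0 and 66.1 CPM in HFD and 365, 439 and 218 CPM in control (-3.61 ± 0.44, adjusted p = 0.00194). With every deposited entry the Cxcl10 difference was -0.81 and did not pass (adjusted p = 0.0582). Ccl2, which attracts monocytes through Ccr2, was at 317, 329 and 198 CPM in HFD and 945, 669 and 1084 CPM in control (-1.73 ± 0.23). Ccl7, a further Ccr2 ligand, had a difference of -2.82 ± 0.52, which missed the threshold without HFD 1 or HFD 3. Ccl12 missed it without HFD 1, HFD 2 or HFD 3, where 4 such fits could test it, and Ccl6 in 5 of 6 such fits. In the other kept cells Ccl2 differed by -2.33 ± 0.23 and Ccl7 by -2.20 ± 0.22 between the diets, so both fell there as well.

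Fn1, Cd24a and Fcrls fell too. Fn1 was at 489, 441 and 507 CPM in HFD, against 1853, 1566 and 1123 CPM in control (-1.74 ± 0.20, adjusted p = 0.000947). Thinned to 3000 UMIs, 38.3% ± 6.91 of Ear2 cells in HFD and 81.8% ± 7.34 in control had an Fn1 UMI (SD, n = 3 each; two-sided exact permutation p = 0.1), while 3 of 19 T cells had one. Cd24a, a surface glycoprotein, was at 20.6, 0 and 44.1 CPM in HFD and 171, 156 and 148 CPM in control (-2.97 ± 0.42). Fcrls, an Fc receptor-like gene, fell by 2.54 ± 0.35 on the log2 scale. With every deposited entry the Fcrls difference was -0.61 (adjusted p = 0.092), and with thinned cells that of Cd24a was -2.07 (adjusted p = 0.0544), so neither passed there. None of these 3 overlapped between diets, which the rule for naming them required. The diet differences in the other kept cells were -1.50 ± 0.28 for Fn1, -2.55 ± 0.37 for Cd24a and -2.10 ± 0.22 for Fcrls. All 3 passed there as well, and the interaction test described below passed for none of them.

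Irf4, the transcription factor of small serous cavity macrophages, had 1 UMI in all HFD Ear2 cells and 110 in the control ones. The ratio of pooled levels was 0.0298, HFD over control, with an exact 95% interval for counting error of 0.000748 to 0.170. In edgeR's quasi-likelihood test it fell (adjusted p = 0.00569), and the call held in all 6 fits that left out a sample. The interaction test described below, against the other kept cells, did not pass for Irf4. Cd226, the adhesion receptor known from the same macrophages, was at 0, 7.01 and 0 CPM in HFD and 34.6, 15.6 and 28.5 CPM in control and was too low to be tested. Large serous cavity macrophage genes were low, with Gata6 averaging 2.30 CPM in Ear2 cells. Among other interleukin 4 targets, the mannose receptor Mrc1 fell (-0.91 ± 0.19), a call lost in all 6 fits without a sample, and Mgl2 (-1.16 ± 0.53, adjusted p = 0.296) and Ccl24 (-1.28 ± 0.52, adjusted p = 0.23) did not pass. Of 19 genes of that list tested, 1 rose (Chil3) and 2 fell (Irf4 and Mrc1), against 1.17% and 1.12% over all genes tested.

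Of 20 immediate early genes, 15 had negative diet differences, against 1953 of the 3931 genes tested in all. Of these 20 genes, 2 fell, a share of 10% against 1.12% over all genes, and none rose. The 2 were the nuclear receptors Nr4a3 (-1.94 ± 0.27) and Nr4a2 (-1.89 ± 0.26). Nr4a3 was at 37.0, 49.0 and 88.2 CPM in HFD and 219, 192 and 186 CPM in control. Hk2, a hexokinase (-1.72 ± 0.32), and Tuba1a, an alpha tubulin (-1.76 ± 0.32), fell as well. Hk2 missed the threshold without control 1, HFD 1 or HFD 2, and Tuba1a without HFD 1 or HFD 3. Of 18 oxidative phosphorylation genes none passed in either direction. Of 8 MHC class II genes tested, Ctss, a cathepsin that processes the invariant chain, rose and none fell. The differences of that list were positive in 1 gene and negative in 7, with a median of -0.17. Over all genes tested, 1978 differences were positive and 1953 negative. Of 10 interferon response genes and 9 integrin and adhesion genes none passed. In the other kept cells Nr4a3 differed by -2.59 ± 0.28 and Nr4a2 by -1.81 ± 0.29, so both fell there as well. Hk2 and Tuba1a did not pass in the other kept cells.

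**Figure D4:**
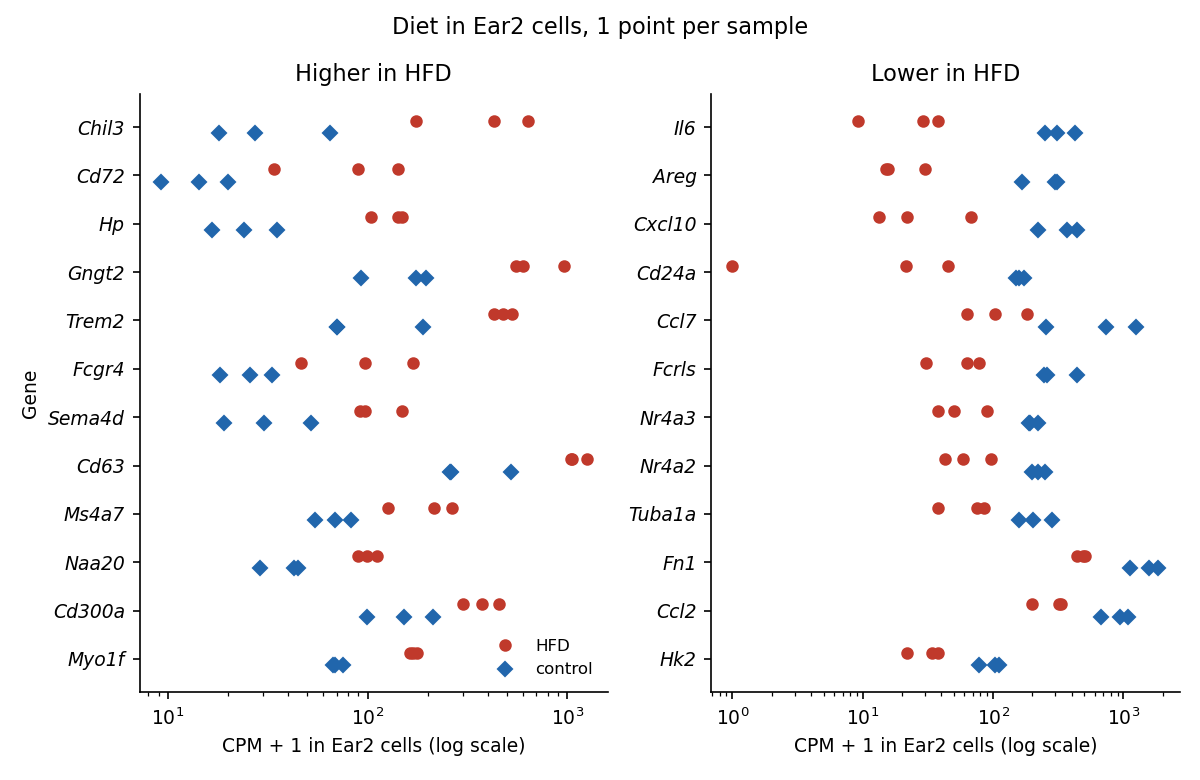
CPM plus 1 on a log axis in Ear2 cells for the 12 largest rises (left) and the 12 largest falls (right) with diet, 1 point per sample, HFD as circles and control as diamonds. In none of the 24 genes do the diets overlap, which the rule for naming them required.

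Whether diet acted differently in Ear2 cells than in the other kept cells was tested as an interaction in the same edgeR framework, with each sample as a block. Of 7885 genes, 108 had a higher diet difference in Ear2 cells (1.37%) and 27 a lower one (0.342%). Among these calls, 1 was of a rule gene. The other cells are a mixture whose makeup differed between diets, with 70 resident-gene cells in HFD and 415 in control, so the interaction also holds that shift. Without HFD 1 the higher count was 62. Without control 3 the lower count was 52, and without HFD 3 it was 42. With barcodes in only 1 sample the counts were 10 higher and 13 lower, and 15 of the 119 calls that could be tested were made again.

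Ifitm6, Lsp1 and Il1b were lower in HFD in the other cells, while in Ear2 cells no diet difference passed. Ifitm6 averaged 200 CPM in HFD and 229 CPM in control in Ear2 cells, and 24.1 CPM in HFD and 143 CPM in control in other cells. Its interaction was 2.32 ± 0.27. Lsp1, an actin-binding protein of leukocytes, averaged 860 and 745 CPM in Ear2 cells of HFD and control, and 216 and 565 CPM in other cells of HFD and control (1.59 ± 0.17). Il1b averaged 2739 and 2466 CPM in Ear2 cells of HFD and control, and 552 and 1366 CPM in other cells of HFD and control (1.38 ± 0.18). Ly6e (2.06 ± 0.22), Plac8 (2.20 ± 0.24) and Chil3 (4.39 ± 0.55) complete the 6 with the smallest p among the higher ones. All 6 had an adjusted p below 0.05. With barcodes in only 1 sample, Plac8 passed and Ly6e, Lsp1, Ifitm6, Chil3 and Il1b did not (adjusted p = 0.416 for Chil3).

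Qpct, Mt2 and Id3 rose in HFD in the other cells and had negative diet differences in Ear2 cells, of which that of Mt2 passed in all samples together but in only 1 of the 6 fits without a sample, and not with thinned cells (adjusted p = 0.118). Qpct, a glutaminyl cyclase, was at 12.3, 14.0 and 44.1 CPM in Ear2 cells of HFD and 98.8, 69.3 and 55.0 CPM in those of control, and it averaged 133 CPM in HFD and 48.3 CPM in control in other cells (interaction -3.30 ± 0.43). Mt2, a metallothionein, averaged 107 CPM in HFD and 289 CPM in control in Ear2 cells, and 523 CPM in HFD and 233 CPM in control in other cells (-2.52 ± 0.34). The interaction was -1.82 ± 0.25 for Id3, a transcription regulator, and -2.05 ± 0.27 for Tuba1a. Il6 fell in both sets of cells, by more in Ear2 cells (-2.14 ± 0.36). Cxcl10 (-2.49 ± 0.36) had a diet difference of -1.09 ± 0.40 in other cells, which did not pass (adjusted p = 0.0673). With barcodes in only 1 sample, Mt2, Id3, Tuba1a and Il6 passed and Qpct and Cxcl10 did not.

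Among the lists, several dendritic, monocyte and neutrophil genes had a higher diet difference in Ear2 cells. Over all genes in the interaction, 1.37% were higher and 0.342% lower. Of 5 neutrophil genes 3 were higher (S100a8, S100a9 and Retnlg). Of 8 type 2 dendritic cell genes, 4 were higher in the interaction (Napsa, Clec10a, Mgl2 and Cd209a) and 1 was lower (Itgax). Cd209a averaged 121 CPM in HFD and 207 CPM in control in Ear2 cells, and 50.7 CPM in HFD and 297 CPM in control in other cells. Of 8 migratory dendritic cell genes 5 were higher, of 10 non-classical monocyte genes 5, and of 6 classical monocyte genes 4. Of 10 macrophage genes and 10 resident macrophage genes none passed. The part of the other cells' makeup and of shared barcodes in these counts was not tested.

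**Figure D5:**
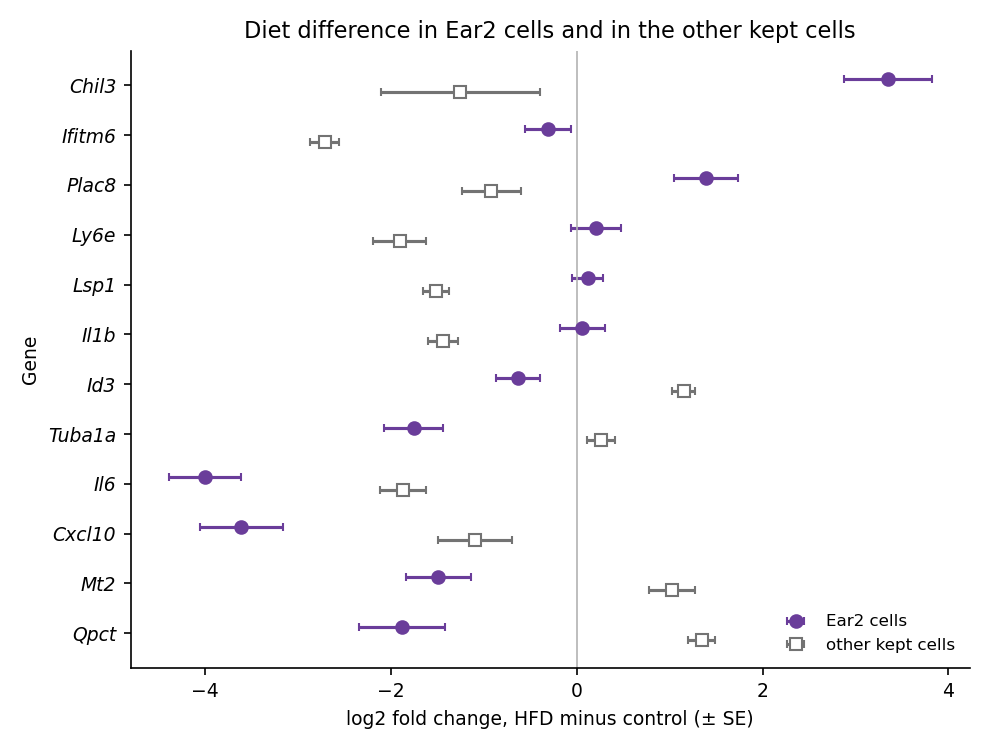
Log2 fold change, HFD minus control, with its SE, in Ear2 cells (filled circles) and in the other kept cells (open squares) for the 12 genes named by the interaction. The 6 upper genes lie further right in Ear2 cells, and the 6 lower ones further left.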

How the data were processed

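Cells sorted for CD45 and CD11b from epididymal fat of 3 HFD and 3 control samples were sequenced as single cells. The authors deposited whole-number UMI counts per gene and barcode for 33456 genes, without normalization. Cell Ranger, Seurat 2.4 and mm9 stand in the submitters' processing notes without a role, and how barcodes were called is not stated in the labels. RefSeq promoters and GENCODE transcripts are of GRCm38, so no position of the files' own build is printed.

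Each barcode was assigned to the sample where it had most UMIs, and cells with at least 200 genes and at most 10% mitochondrial UMIs were kept. No doublet caller was run. The members and gene lists were chosen with earlier results of these data known. Of 463 listed symbols 456 were found, 7 of them under an older name.

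UMIs were summed per sample and tested with edgeR 4.0.16 in R 4.3.3 (quasi-likelihood test, TMM, filterByExpr, Benjamini-Hochberg over all genes tested, threshold 0.05). Levels are CPM, and ratios between cell groups add 5 CPM. Samples were grouped by the diet in their labels. Shares were compared after thinning each cell to 3000 UMIs, which left out 1 HFD and 16 control Ear2 cells. Intervals are exact Clopper-Pearson and cover counting error only. Diet genes named are the 12 largest rises and falls of a mean of 50 CPM or more whose diets do not overlap. Genes against other cells are the 20 highest and 10 lowest ratios of at least 100 CPM with 1 sign in every sample. Interaction genes are the 6 smallest p in each direction among genes of at least 50 CPM. List genes were added by smallest p or by their bearing on identity. Rule, predicted, ribosomal and mitochondrially encoded genes could not enter by size. Alternatives were DESeq2 1.42.0, RLE size factors, no low-count filter, a replicate block, each sample left out, other Ear2, Cd209a and barcode limits, thinning and every deposited entry. Members with at least 10 C1q UMIs were an alternative chosen after seeing the data. The count test was tested on simulated data.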

Additional observations from a re-analysis of the deposited data

Results flagged for a closer look

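The difference between the diet effects of Ear2 cells and of the other kept cells passed edgeR's quasi-likelihood interaction test for the 12 genes named by rule. On the log2 scale, as the diet effect in Ear2 cells minus that in other cells, it was 2.06 for Ly6e, 1.59 for Lsp1, 2.20 for Plac8, 2.32 for Ifitm6, 4.39 for Chil3 and 1.38 for Il1b. It was -3.30 for Qpct, -2.05 for Tuba1a, -2.52 for Mt2, -1.82 for Id3, -2.49 for Cxcl10 and -2.14 for Il6. Barcodes shared between samples and the different makeup of the other cells in the 2 diets move with these values, and their part was not tested.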

How the results depend on the processing

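In Ear2 cells, 46 genes were higher and 44 lower in HFD. With no filter on low counts these were 113 and 225, with barcodes in 1 sample the higher ones were 20, and with at least 80% of a barcode's UMIs in its sample the lower ones were 96. With at least 2 Ear2 UMIs the lower ones were 79, with fewer than 2 Cd209a UMIs the higher ones were 27, with at least 10 C1q UMIs the counts were 28 and 20, with every entry the lower ones were 151, and with thinned cells the counts were 18 and 25. Leaving out 1 sample gave 11 to 50 higher and 21 to 59 lower genes. With the replicate number as a block the counts were 51 and 63. Retnla then passed, at -3.57 (adjusted p = 0.0474). The number pairs nothing by label, and same-numbered samples correlated at 0.024, -0.029 and 0.029, so the samples share only a number. DESeq2 gave 52 and 57.

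For the interaction, with 108 higher and 27 lower, leaving out 1 sample gave 62 to 108 higher and 19 to 52 lower. Barcodes in 1 sample gave 10 and 13, the 80% limit 15 and 11, at least 5 Ear2 UMIs 63 higher, at least 2 UMIs 50 lower, at least 10 C1q UMIs 49 higher, and no filter 80 lower. Plac8 turned round with at least 10 C1q UMIs, at -1.48 for diet and -0.73 for the interaction (adjusted p = 0.445). The cause was not tested in any of these.

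The share of Ear2 cells in HFD was 6.76% with at least 2 Ear2 UMIs, 4.43% with at least 5, 9.27% with every entry, 7.50% with barcodes in 1 sample, 7.75% with the 80% limit and 4.56% after thinning. In control it was 15.3% with at least 5 UMIs and 11.95% with every entry. The Ear2 cells number 18 in 2 of the samples, with 136082 to 607516 UMIs per sample, which limits genes of low level most.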
